A study of Talpa occidentalis with 24 samples.

Results

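CYP17A1 encodes a steroidogenic cytochrome P450 enzyme, and the deposited data describe it in mouse and mole in different ways. In the mouse they give chromatin states, that is, names assigned to stretches of the genome from combined histone marks, over a 210 kb window around Cyp17a1 (mm9, chr19:46640001-46850000) in ovary and testis. In the Iberian mole, Talpa occidentalis, they give gene models. The window is centred near the gene, and every segment that touches it was taken: 254 of 3724059 segments in the mouse ovary and 267 of 3842222 in the mouse testis. Of the 23336 gene models of the mole, all 3 whose name is CYP17A1, with or without a copy suffix, are described.

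The study profiled gonads by ChIP-seq for H3K4me3, H3K4me1, H3K27ac and H3K27me3, marks of promoters, enhancers, active elements and Polycomb repression. In this species females have ovotestes, in which ovarian tissue lies beside sterile testis-like tissue. The labelled samples are 24 libraries from wild type moles at postnatal day 7, 8 from each of 3 tissues (ovary-like and testis-like parts of the ovotestis, and male testis), with 4 marks in 2 replicates. The mouse gonads came from E13.5 embryos, per the labels' protocol; no labelled library is from mouse, and the sources used here give neither the genotype of these mice nor the number of replicates behind their tables.

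CYP17A1 converts pregnenolone and progesterone into androgen precursors through its 17α-hydroxylase and 17,20-lyase activities. In the gonads it is a classical marker of the androgen-producing Leydig cells of the testis and, later in life, of the theca cells of the ovary. The mouse fetal testis makes androgens, while the fetal ovary is largely quiescent in steroid synthesis. The Polycomb state is a mark of genes kept silent, and the poised enhancer state is commonly read as H3K4me1 without acetylation, although the sources used here do not give the authors' own definition of each state.

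Cyp17a1 itself was in active chromatin in the mouse testis and had no active base in the mouse ovary. The gene was taken as chr19:46741701-46747700 on the minus strand (6 kb, an approximate span that was not checked against a gene annotation of mm9), so it is read from right to left and its start is the right-hand end. Over these 6000 bases the testis had 1800 bases (30%) in the promoter state, 3100 (51.7%) in the active enhancer state and 1100 (18.3%) in the poised enhancer state. The ovary had 0 bases in the promoter state and 0 in the active enhancer state. Its bases were poised enhancer (3000, 50%), Polycomb repression (2200, 36.7%) or undefined (800, 13.3%). No base of the gene was in the Polycomb state in the testis.

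Each tissue has 1 segmentation that combines marks and any replicates, so there is no spread between animals or libraries to set these values against, no test was run, and the depth is unknown. The mouse tables name no genes, and values at the exact start or end of Cyp17a1 depend on the approximate span.

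**Figure D1:**
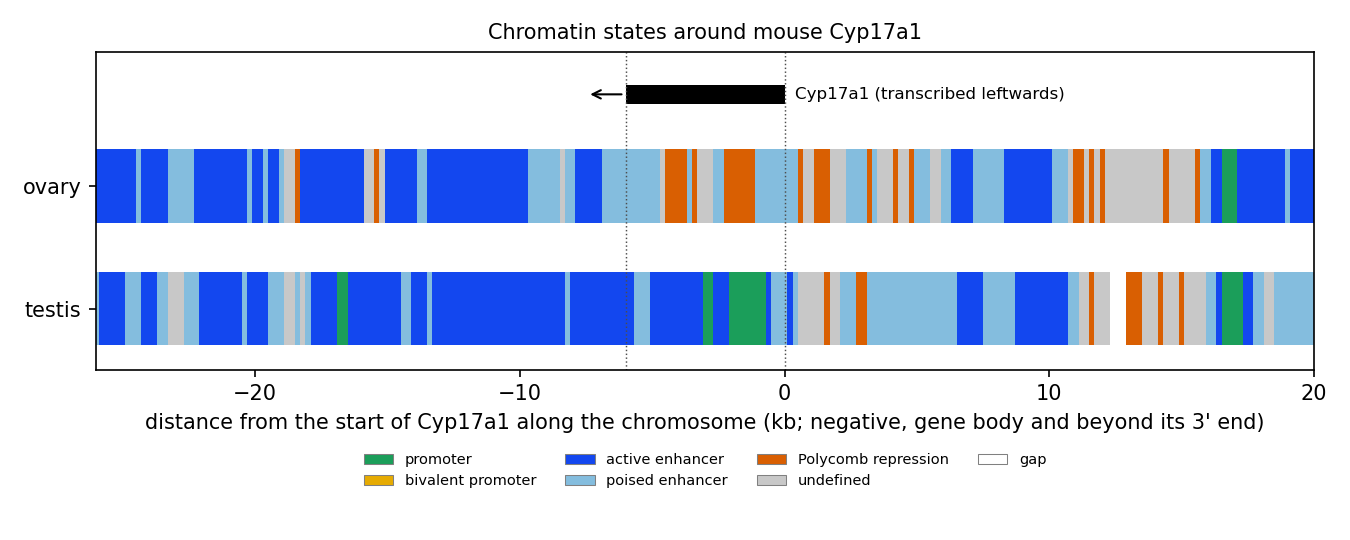
Chromatin states in 200 bp steps around mouse Cyp17a1 in ovary (upper track) and testis (lower track); the x axis is the distance in kb from the start of the gene, the black bar is the gene and the dotted lines are its ends. Within the gene the testis track is mostly active enhancer and promoter (81.7% of bases together), and the ovary track is poised enhancer, Polycomb repression and undefined.

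Read from the start of the gene, the testis was poised at chr19:46747201-46747800, which includes the start itself, and then active without a break for 4600 bases, at chr19:46742601-46747200. Inside that stretch the promoter state lay at chr19:46745601-46747000, 1400 bases long and -2.1 to -0.7 kb from the start, and at chr19:46744601-46745000, 400 bases long and -3.1 to -2.7 kb from it. By the approximate span, the promoter state covered the first part of the gene body and not the nominal start. The rest of the stretch was active enhancer. A further 200 bases of active enhancer lay just upstream of the start, at chr19:46747801-46748000.

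The same stretch in the ovary was broken up. Of its 4600 bases, 47.8% were in the Polycomb state, 34.8% poised and 17.4% undefined. The longest Polycomb segment, chr19:46745401-46746600, measured 1200 bases and overlapped the longer promoter segment of the testis. The ovary was poised over the nominal start, at chr19:46746601-46748200. Both tissues were in the poised state at this nominal start.

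Base by base, all 2200 Polycomb bases of the gene in the ovary were active in the testis: 1000 in the promoter state and 1200 in the active enhancer state. Bins of 200 bp that were in the promoter state in the testis and in the Polycomb state in the ovary made up 0.0114% of all bins of the mouse genome (1511 of 13274547). The promoter state itself covered only 0.744% of the genome in the testis. Of its 19753200 bases there, 302200 were in the Polycomb state in the ovary. Of the 3000 poised bases of the gene in the ovary, 400 were promoter and 1500 active enhancer in the testis, and 1100 were poised in both. The 800 undefined bases divided equally, 400 to promoter and 400 to active enhancer.

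In total, 4900 of the 6000 bases of Cyp17a1 (81.7%) were in different states in the 2 gonads. Over the whole mouse segmentation 48.3% of bins differed, counting the 10.2% of bases in the gap state in both gonads, which cannot differ. All 4900 were bases active in the testis and not in the ovary, a class that held 3.93% of bins over the genome, against 6.28% for bins active in the ovary and not in the testis. Genome-wide, the active states covered more of the ovary (12.7%) than of the testis (10.4%), so the direction at Cyp17a1 was opposite to that of the totals.

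The active share of the gene was 81.7 percentage points higher in the testis. Windows of 6 kb were laid end to end over the genome, leaving out those mostly in the gap state. Of these 396391 windows, 53 (0.0134%) had a difference at least as large in that direction. The windows were not placed on genes, whereas the Cyp17a1 span was, so this is no share among genes. At a limit of 50 points, 1658 windows (0.418%) were more active in the testis and 6917 (1.74%) in the ovary. The uninterrupted stretch of 4600 bases, part of the same active bases, was long among the unshared stretches of the testis. Of 99849 active stretches of the testis that held no active base of the ovary, 33 were at least as long. The median of the 99849 was 400 bases and the longest was 6200. Of 106979 active stretches of the ovary that held no active base of the testis, 159 were at least as long.

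**Figure D2:**
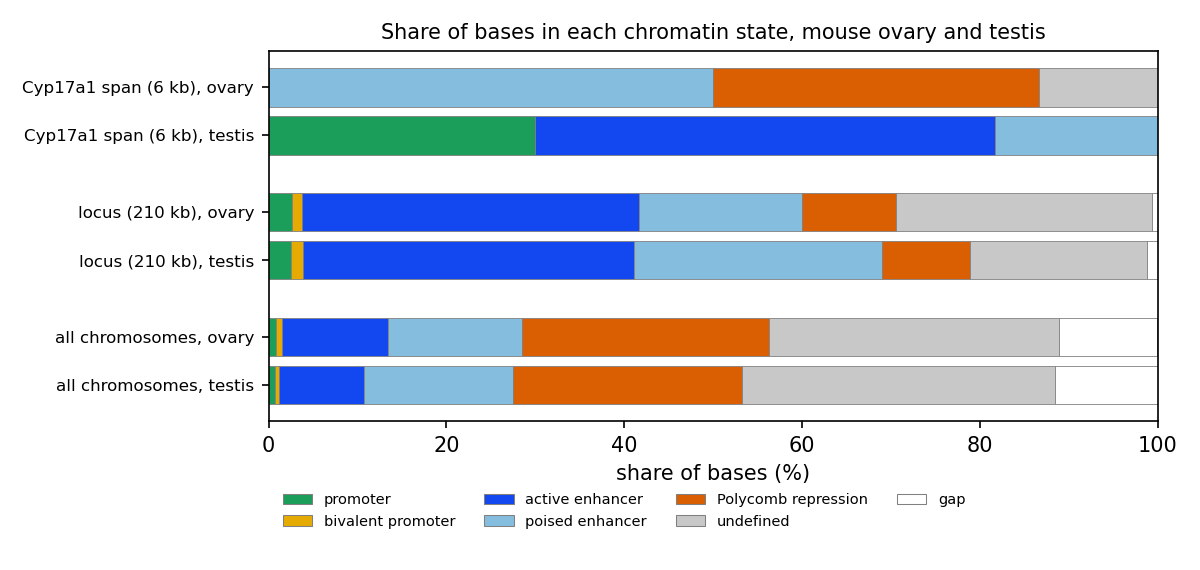
Share of bases in each chromatin state (x axis, percent) in ovary and testis for the 6 kb of Cyp17a1, the 210 kb window around it and all chromosomes; each bar is 1 segmentation, with no error. The bars of the 2 gonads differ most over the gene, where the active states cover 0% in the ovary and 81.7% in the testis, and are close over the window, at 40.7% and 39.8%.

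The surrounding window did not show the contrast seen at the gene. Active states covered 40.7% of the 210 kb in the ovary and 39.8% in the testis, about the same in both and in both well above the genome-wide 12.7% and 10.4%. The share of bases in different states was 48.3% (95% Wilson interval over bins 45.3 to 51.3, counting error only), and over the genome it was 48.3%. Bases in the gap state in both gonads cannot differ, and they made up 10.2% of the genome but 0.476% of the window. These shares are therefore not like for like. With gap bases left out the window had 48.0%, and the genome share was not computed in that way. Polycomb coverage was 10.6% in the ovary and 10% in the testis, against 27.8% and 25.7% over the genome. The states that differed most in total were poised enhancer, with 18.3% in the ovary and 27.8% in the testis, and undefined, with 28.8% and 19.8%.

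Downstream of the gene, beyond its 3′ end, both gonads were densely active. Over the 101700 bases from the edge of the window to the gene, active states covered 63.9% in the ovary and 57.5% in the testis. Of the active bases of the ovary there, 73.8% were active in the testis, and of those of the testis 82.1% were active in the ovary. Over the genome these shares were 50.7% and 62.2%. Such shares rise with the active coverage of the other gonad, which was higher in this flank than over the genome. They were not adjusted for it. The longest active stretch of the window lay in this flank in both gonads, at chr19:46690001-46700400 in the ovary (10400 bases) and chr19:46690401-46700600 in the testis (10200 bases). It was active over 96.2% of its length in the testis and 98.0% in the ovary.

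Upstream of the start, activity was lower, and a smaller share of the active bases was active in both gonads. Over 102300 bases the active states covered 19.9% in the ovary and 19.7% in the testis. Of the active bases of the ovary 54.9%, and of those of the testis 55.4%, were active in the other gonad. These shares were not adjusted for the lower coverage of this flank, so they do not show that its activity was less shared than its coverage allows. The Polycomb state covered 18.0% and 18.8% there, against 1.57% and 1.77% downstream. The first active stretches upstream that the gonads shared lay at chr19:46754001-46754800 in the ovary, 6.3 to 7.1 kb from the start, and chr19:46754201-46755200 in the testis. A second pair followed at chr19:46756001-46757800 and chr19:46756401-46758400. Both gonads therefore carried active chromatin on either side of Cyp17a1, and differed over the gene between.

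**Figure D3:**
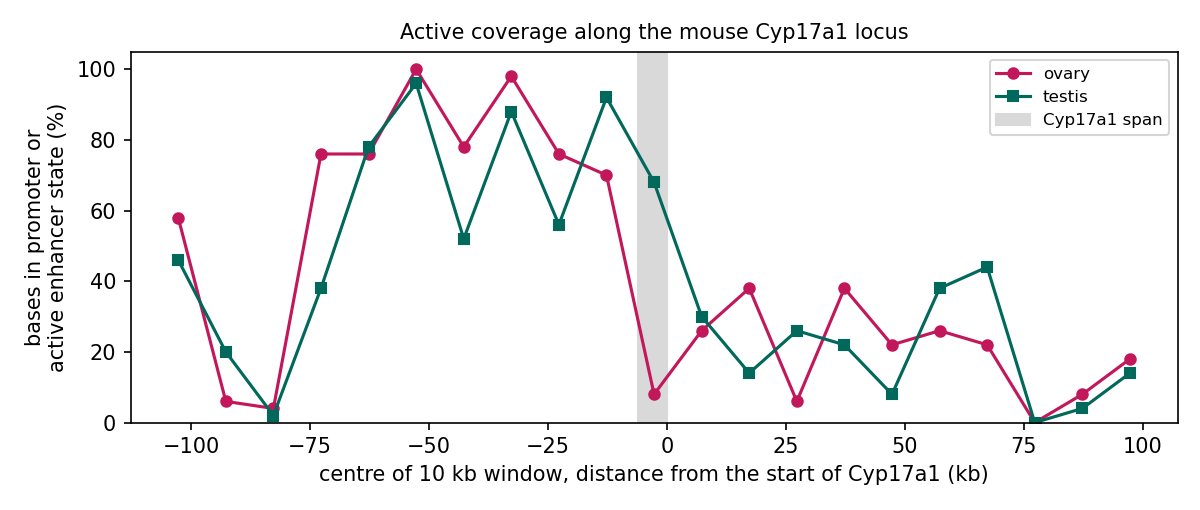
Share of bases in the promoter or active enhancer state (y axis, percent) in windows of 10 kb along the 210 kb around mouse Cyp17a1, by distance of the window's centre from the start of the gene (x axis, kb); each point is 1 window of 1 segmentation. The shading marks the gene span. The difference is largest at the window that holds the gene, with 8% in the ovary and 68% in the testis. The largest in the opposite direction lies in the left flank, with 76% and 38%.

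In windows of 10 kb the testis was more active in 8 of 21, the ovary in 12, and 1 had the same share. The median difference, testis minus ovary, was -4 percentage points. The window that holds the gene, chr19:46740001-46750000, had the largest difference, 60 points, with 8% active in the ovary and 68% in the testis. The next largest in that direction, 22 points, was the adjoining window chr19:46730001-46740000, beyond the 3′ end, with 70% and 92%. In the opposite direction the largest was 38 points at chr19:46670001-46680000, with 76% active in the ovary and 38% in the testis. At Cyp17a1 itself the ovary window held 30% Polycomb and 44% poised enhancer, and the testis window 2% and 16%.

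At the 3′ end the active chromatin of the testis ran from the flank into the gene. A stretch at chr19:46739601-46742000 crossed the end of the gene, and 41.7% of it was active in the ovary, where the nearest active stretch, chr19:46739801-46740800, stopped short of the gene, -6.9 kb from its start. Between 46742001 and 46742600 the testis was poised. The next stretch to the left, chr19:46734401-46739400 in the testis, was 5000 bases long and active over 72% of its length in the ovary.

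Active stretches found in 1 gonad only were 7 of 40 in the ovary (17.5%) and 13 of 50 in the testis (26%). Over the genome these shares were 46% and 38.5%. The 95% Wilson interval of the window (counting error only) was 8.75 to 31.9% in the ovary, below the genome share. In the testis it was 15.9 to 39.5%, which includes the genome share. The interval treats neighbouring stretches as independent, and the shares were not adjusted for the higher active coverage of the window. Most of the unshared stretches were short, with a median of 400 bases in each gonad. The longest in the ovary measured 1200 bases, at chr19:46798401-46799600, and the longest in the testis was the 4600 bases of Cyp17a1. At 1000 bases or more the counts were 3 of 26 in the ovary (11.5%, interval 4.003 to 28.98) and 3 of 27 in the testis (11.1%, interval 3.85 to 28.1). The genome shares at that length, 21.9% and 16.4%, lay within both intervals.

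Over the whole window there were 6 segments in the promoter state in the ovary and 9 in the testis, 2 of the latter inside Cyp17a1. Outside the gene, most had a counterpart in the other gonad. The promoter states coincided at chr19:46764201-46764800 in the ovary and chr19:46764201-46765000 in the testis, 16.5 kb upstream of the start of Cyp17a1, and likewise at chr19:46781801-46782800 and chr19:46782001-46782600, and at chr19:46835201-46835800 and chr19:46835401-46835800. On the other flank, the ovary had promoter state at chr19:46646801-46648400 and chr19:46673001-46674600, where the testis had a mixture of promoter and bivalent promoter. Of the 5600 promoter bases of the ovary in the window, 3000 (53.6%) were promoter and 1400 (25%) bivalent promoter in the testis, and of the other bases 600 were active enhancer and 600 poised.

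Promoter segments with no promoter counterpart were few. The testis had 3: the pair within Cyp17a1 and chr19:46730801-46731200, which was active enhancer in the ovary. The ovary had 1 of 200 bases, chr19:46716401-46716600, inside a long active enhancer stretch of both gonads. A bivalent promoter lay far upstream in both, at chr19:46837001-46839200 in the ovary and chr19:46837001-46838200 in the testis. No bivalent promoter state was called within 20 kb of Cyp17a1 in either gonad. The genes that these promoters belong to are not named, because the mouse tables carry no gene names.

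In the mole, the gene was present as 3 models in a row on the minus strand of scaffold 11 of the assembly talOcc3. The model named CYP17A1 lay rightmost, at 45139044 to 45144553. The model CYP17A1_copy3 lay in the middle, at 45117841 to 45121591, and CYP17A1_copy2 on the left, at 45100228 to 45105611. On the minus strand the right-hand model is the first to be met. Gaps of 12229 and 17452 bases separated them, and 0 models of another name lay between. From the start of one model to the start of the next the distances were 15980 and 22962 bases.

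**Figure D4:**
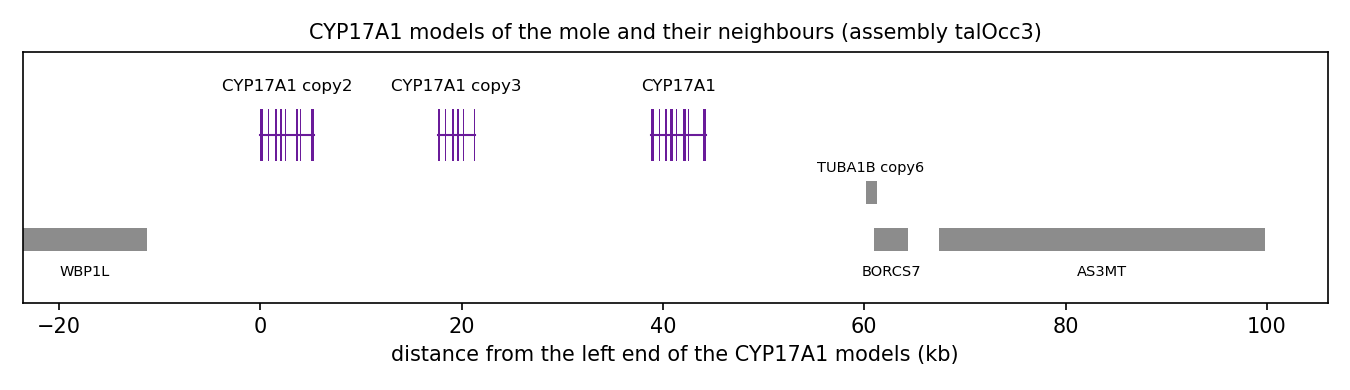
The CYP17A1 models of the mole on talOcc3, with exons as purple bars, drawn to scale by distance from their left end (x axis, kb); grey bars are neighbouring models. The 3 models lie in a row with no other model between them, and WBP1L, BORCS7 and AS3MT flank them.

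CYP17A1 and CYP17A1_copy2 had the same exon structure to the base. Both had 8 exons of 297, 139, 230, 87, 216, 170, 104 and 290 bases, 1533 in all, or 511 codons with no base left over. Every exon was coding, and the deposited reading frame carried over from each exon to the next in both. The models of the file hold coding sequence only, since exon and coding rows had the same coordinates in all 23336 models, so nothing is known here of untranslated ends.

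CYP17A1_copy3 was shorter at its 5′ end. Its last 5 exons measured 87, 216, 170, 104 and 290 bases, the same as exons 4 to 8 of the others. Before them it had a single exon of 144 bases where the others had exon 3 with 230, a difference of 86 bases, and no model exon corresponded to exons 1 and 2. Its 6 exons came to 1011 bases, or 337 codons with none left over, 522 bases fewer than the other models. The frame was kept in all 6. Whether the missing exons lie in the 17452 bases to its right was not analysed here, as no talOcc3 sequence was used.

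Introns varied more than exons, and unevenly along the gene. The first intron measured 1435 bases in CYP17A1 and 990 in CYP17A1_copy2. The third measured 618 bases in CYP17A1, 930 in CYP17A1_copy2 and 997 between the first exons of CYP17A1_copy3, so here the copies were closer to each other than to CYP17A1. The rest were nearly alike. The second intron had 198 and 204 bases, and introns 4 to 7 differed among the 3 models by between 11 and 32 bases. Intron 6 measured 569 bases in both CYP17A1 and CYP17A1_copy2, and 601 in CYP17A1_copy3.

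Counted together, 5 of the 7 introns of CYP17A1_copy2 and 4 of the 5 of CYP17A1_copy3 were within 40 bases of the length in CYP17A1, a limit set after the lengths had been seen. The introns of CYP17A1 summed to 3977 bases, those of CYP17A1_copy2 to 3851 and those of CYP17A1_copy3 to 2740.

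**Figure D5:**
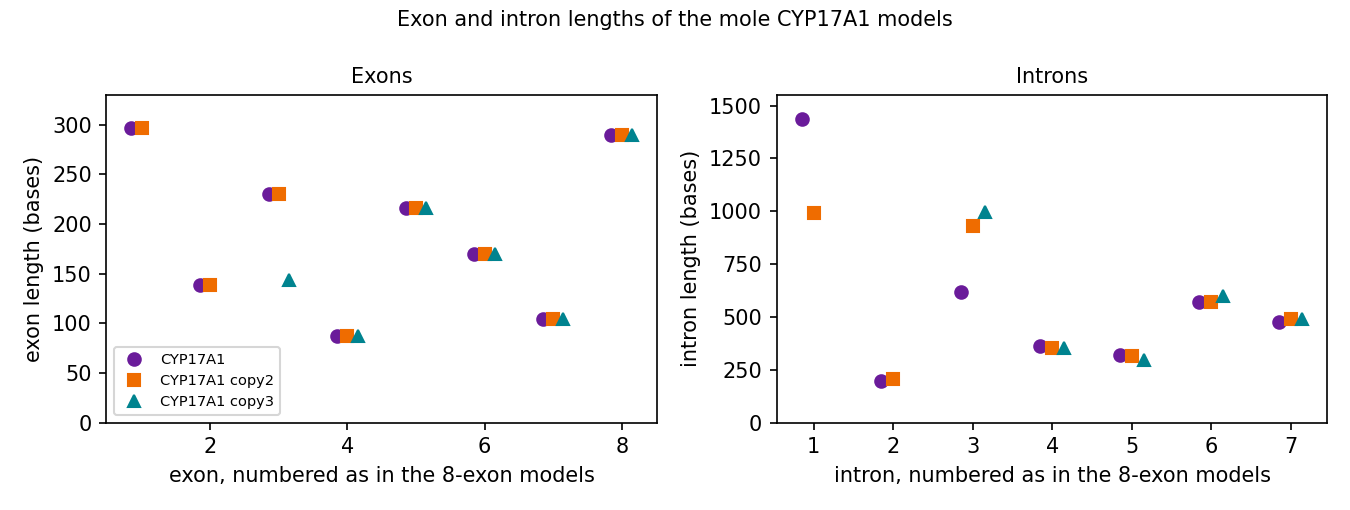
Lengths of exons (left) and introns (right), in bases, of the 3 mole CYP17A1 models, numbered as in the 8-exon models; the shorter model is aligned at its 3′ end. Exon lengths coincide except for the 144 bases of CYP17A1_copy3 at exon 3, and introns 1 and 3 differ most.

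All 3 models were matched to the same CYP17A1 target sequence. CYP17A1 and CYP17A1_copy2 matched its positions 173 to 1696, and CYP17A1_copy3 positions 698 to 1696. The match began at base 10 of each model. The deposited score was 1476 for CYP17A1, 1366 for CYP17A1_copy2 and 904 for CYP17A1_copy3, or 100%, 92.5% and 61.2% of the best score for the name. Per matched base of the target, which sets aside the shorter length, CYP17A1 scored 0.969, CYP17A1_copy2 0.896 and CYP17A1_copy3 0.905. The sources used here give no scale for the score, so it ranks the models against their shared target and is no percent identity. The models with no copy suffix had a median of 1.25 per matched base, against targets of their own.

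The evidence source recorded for all 3 models was EVM. Among the 5255 models of the mole with a copy suffix, 30.2% had that source, against 74.1% of models without a suffix. Copies with as many exons were also a minority. Of models with a copy suffix, 54.5% had 1 exon, the median number of exons was 1, and 12.4% had 6 or more, as both CYP17A1 copies did. Among copies with several exons and a score, the median was 55.9% of the best score of the name, below the 61.2% of CYP17A1_copy3 and the 92.5% of CYP17A1_copy2.

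Counts over all names of the annotation were set beside CYP17A1. Of 18052 names, 13.1% had more than 1 model, 5.25% had 2 or more models with several exons on the same strand within 100 kb of each other, and 0.798% (144 names) had 3 or more, CYP17A1 among them. Of the 948 names with 2 or more, 9 (0.949%) had 2 models whose exon lengths were identical throughout. Of the 442 names with 2 or more such models of at least 5 exons, 3 (0.679%) had 2 such identical models. These were CYP17A1, CYP4A11, a cytochrome P450 of fatty acid metabolism, and CLEC12A, a lectin receptor of immune cells. They were identified after the lengths had been seen. CYP4A11 and CYP4A11_copy3 shared all 12 exon lengths, and CLEC12A_copy2 and CLEC12A_copy3 all 6.

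A list of 25 genes of steroid synthesis and its regulation was searched by name, and 20 had a model. Of these 18 had 1 model, and 2 had 2 models on different scaffolds: CYB5A, the cytochrome that assists the lyase activity of CYP17A1, and HSD17B12. The second HSD17B12 model had 1 exon of 927 bases against 11 exons and 942 bases in the first, and CYB5A had models of 1 and 2 exons. Tandem models were found for 0 of the 20, where 5.25% of all names had them, and the 2 of 20 with more than 1 model stand beside 13.1% of all names, so neither count sets the list apart. The cholesterol transporter STAR had 1 model with 7 exons, CYP11A1, which makes pregnenolone, 1 with 9, HSD3B1 1 with 3, HSD17B3, which makes testosterone, 1 with 11, and the aromatase CYP19A1 1 with 9. The reductase POR, which supplies CYP17A1 with electrons, had 1 model with 15 exons, and the gonadal regulator NR5A1 1 with 7. HSD3B2, AKR1C3, CYP11B1, CYP11B2 and SULT2A1 had no model of that name.

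On the left of the cluster followed WBP1L, 11267 bases away, then SFXN2, ARL3, TRIM8 and SUFU, a regulator of Hedgehog signalling. On the right lay TUBA1B_copy6, BORCS7, the arsenic methyltransferase AS3MT, CNNM2 and NT5C2. TUBA1B_copy6, a 2-exon model from the source exonerate that overlaps BORCS7 on the other strand, was the nearest, at 15809 bases. BORCS7 followed at 16601 bases and AS3MT at 23126. The AS3MT model, with 19 exons, held a block of 7 exon lengths repeated in the same order, found in 0.33% of mole models with at least 14 exons.

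In the RefSeq gene table of another mole assembly, MPIMG_talOcc4v2.1, 4 records stood between BORCS7 and WBP1L in the order of its rows; the table gives no chromosome or scaffold for any of them. Of these 2 were protein coding and 2 pseudogenes, and 0 carried a gene symbol; no row of the table used here carries the symbol CYP17A1. The table named 14 of the 25 genes of steroid synthesis, and CYP11A1, CYP19A1, CYP21A2, HSD3B1, POR and CYB5A were likewise not among its symbols. The records were not matched to the 3 models of talOcc3.

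Outside its own copies, the models nearest to CYP17A1 in exon lengths were models with many exons. Likeness was the number of its 8 exon lengths found in another model within 3 bases, in any order, over 23333 models of other names. The muscle protein gene TTN, with 286 exons, had all 8. POLR1A, IQGAP3, HEATR1 and UNC79, with 34 to 44 exons, had 7, and 14 models in all had 7 or more. With exact lengths the highest number shared was 4, reached by 9 models, DROSHA with 33 exons among them. Where models were tied, those with an exon number closest to 8 were listed first. By comparison, CYP17A1_copy2 shared 8 exact lengths with 8 exons, and CYP17A1_copy3 shared 5 with 6 exons.

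Among 20599 models of at most 16 exons, a limit added after the values had been seen, the nearest was SLC22A5, a carnitine transporter, with 6 of the 8 lengths of CYP17A1 within 3 bases. CYP21A2, which like CYP17A1 hydroxylates steroids, shared 2 lengths, CYP11A1 1 and CYP19A1 0.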

How the data were processed

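The authors' deposited mouse tables assign 1 of 7 named states to each stretch of mm9, in steps of 200 bp. They were made with EpiCSeg, per the file headers; the sources used here give no version, read depth or replicates behind each table. STAR 2.6.1d and mm9 are named in the submitters' processing notes. The mole gene models lie on talOcc3, and the deposited score on each model is the authors'. The mole state tables lie on talOcc4 and were not used here.

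The locus and gene coordinates came from the rule for this gene. Active means the promoter or active enhancer state, and adjoining active segments were joined. Ovary and testis were compared base by base. Wilson intervals were taken over bins for the share in different states, and over active stretches for those found in 1 gonad only (scipy 1.17.1). Helper functions were tested on simulated data. Tandem models have several exons, 1 strand and gaps of at most 100 kb. The genes named are the CYP17A1 models, 5 neighbours on each side, the 5 models nearest in exon lengths and a list of 25 steroid genes; some matches in exon lengths are not reported here. Members, lists, windows and limits were chosen with earlier results of these data known. The alternatives tried changed the window, gap states, grouping of states, segment length, overlap, tandem distance and likeness measure.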

Additional observations from a re-analysis of the deposited data

How the results depend on the processing

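No paired analysis was possible because each mouse gonad has 1 segmentation and the gene models have no replicates; leaving out a replicate was not possible for the same reason. The values of the 210 kb window depended mainly on how much of it was taken. With the gene span alone, the ovary had 50% poised enhancer, 36.7% Polycomb repression, 13.3% undefined and 0% of each of the other states, and the testis had 51.7% active enhancer, 30% promoter, 18.3% poised enhancer and 0% of each of the rest, and 81.7% of bases differed between the gonads. With 20 kb on each side of the gene, the ovary had 1.30% promoter, 0% bivalent promoter, 42.2% active enhancer, 27.4% poised enhancer, 17.8% undefined and 0% gap, and the testis 6.52% promoter, 0% bivalent promoter, 47.0% active enhancer, 3.91% Polycomb repression and 13.0% undefined. Active segments of the ovary only numbered 7 of 40 (genome 46%), then 6 of 37 with at least 400 bp (16.2%, genome 39.1%). They numbered 3 of 26 with at least 1000 bp (genome 21.9%) and 13 of 40 when 50% overlap was required (32.5%, genome 60.3%). Those of the testis only numbered 13 of 50 (genome 38.5%), then 7 of 42 with at least 400 bp (16.7%, genome 31.9%), 3 of 27 with at least 1000 bp (genome 16.4%) and 20 of 50 with 50% overlap (40%, genome 46.8%). The genome share lay above the Wilson interval of the window in the ovary without a minimum, with at least 400 bp and with 50% overlap. It also lay above it in the testis with at least 400 bp, and within it in the others named. These intervals are counting error only, and the shares were not adjusted for active coverage. The best exon-length match to another gene had 8 of 8 lengths within 3 bases, 4 with exact lengths, 7 in the same order and 6 among models of at most 16 exons. The number of tandem CYP17A1 models was 3 under a limit of 20 kb and from coding rows. Read depth is unknown, and no limit on detection could be given.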

Other observations

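The AS3MT model, the third to the right of the mole CYP17A1 models, repeated its own exon lengths. Its exons 4 to 10 measured 151, 137, 70, 82, 132, 143 and 135 bases, and its exons 12 to 18 measured the same in the same order. The exons before these blocks, 3 and 11, measured 128 and 98 bases, and 98 was also the length of exon 1. A block of 7 or more exon lengths repeated in order was found in 13 of 3936 mole models with at least 14 exons (0.33%), among them NEB and TTN, which encode proteins built of repeated units, and HK1 and HK2. In the row order of the RefSeq table, which gives no chromosome or scaffold, 1 further protein-coding record with no gene symbol stands between AS3MT and BORCS7. AS3MT was singled out after its exon lengths had been seen.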
